A study of Mus musculus with 4 samples.

Results

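Whole-brain messenger RNA of SAMP8 mice fed whale meat extract was compared with that of SAMP8 mice fed the control diet on 2 of the 4 two-colour microarrays of the study. SAMP8 is a senescence-accelerated mouse strain that shows learning and memory deficits early in life. The arrays were selected by their titles, and both carried the same pair of RNAs with the dyes Cy3 and Cy5 exchanged. After probes that were dim in both RNAs were set aside, 26630 of 33225 genes and unnamed transcripts were measured, 14680 of them with a gene name.

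Both groups were SAMP8, whose background the labels give as AKR/J with suspected outbreeding to an unknown line. The mice arrived at 6 weeks, ate chow until 24 weeks and then a powdered diet for 26 weeks, either low-safflower oil (LSO), the control, or the diet supplemented with whale meat extract (WME). Behaviour (open field, maze and object tests) was examined at 49 weeks for 8 days, and whole brains were taken at 50 weeks. The remaining 2 arrays set the SAMP8 LSO RNA against brain RNA of SAMR1, the senescence-resistant strain, on the LSO diet at the same age. The sources used here do not give the number of mice behind each RNA or say whether RNAs were pooled. The diet comparison therefore holds 1 RNA pair, has no replicate check and carries no p-value. Each log2 ratio is printed with its SD over both dye orientations. It covers technical error only, an SD of 2 values is itself imprecise, and it contains the dye bias of the probe, which the mean of both arrays cancels.

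In a two-colour array both RNAs compete for the same spots, and the ratio of the dyes at a spot is the measurement. A log2 ratio above 0 means more signal from the WME RNA. In whole-tissue RNA, fewer cells of a type and less RNA per cell cannot be told apart. Several of the genes below belong to programmes that are well known in other tissues. The proximal tubule of the kidney reabsorbs phosphate, glucose and amino acids and carries out gluconeogenesis, and it expresses a characteristic set of transporters and enzymes. Immediate early genes encode transcription factors and signalling regulators that neurons switch on within minutes of activity. Heat shock genes encode chaperones that heat shock factor induces when proteins are damaged.

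Most transcripts had nearly the same level in both RNAs. The mean log2 ratio lay within 0.1 of 0 for 83.9% of measured genes, and its SD over genes was 0.095. A gene was called when both arrays gave at least a 1.5-fold difference with the same sign. By that rule 32 genes were higher with WME, 0.12% of those measured, and 9 were lower, 0.0338%. Usual gene names belonged to 26 and 7 of them. With at least 1.2-fold on both arrays, 64 were higher (0.24%) and 46 lower (0.173%). Higher calls outnumbered lower ones at each fold tried from 1.2 to 4. At 2-fold there were 14 against 3, at 3-fold 5 against 0, and at 4-fold 2 against 0, Kap and Dnase1.

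**Figure D1:**
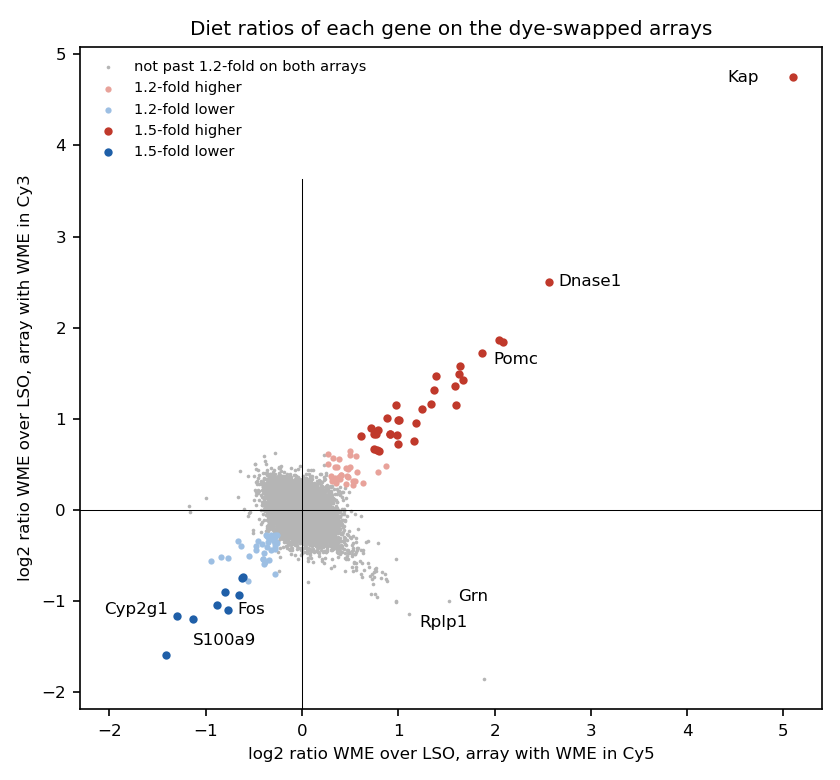
Log2 ratio of WME over LSO for each of 26630 measured genes and transcripts on the array with WME in Cy5 (horizontal) and on the array with WME in Cy3 (vertical). Red and blue points passed 1.5-fold on both arrays (32 higher, 9 lower), pale points 1.2-fold only. Called genes share a sign on both arrays by the rule for calls. The spread along the diagonal of opposite signs follows the dye, with Grn and Rplp1 among its farthest points.

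Among the 32 higher genes the median SD was 0.105, against a median log2 ratio of 1.03. Over all measured genes the median SD was 0.098, and the rule for calls itself requires both arrays to agree in sign. The ratio was the larger one on the array with WME in Cy5 for 24 of the 32 higher genes. Over all genes the dye carried more of the spread than the diet. Of the 26630 measured genes, 5158 were above 0 on both arrays, 4985 were below 0 on both, and 61.9% had opposite signs. The part of the log2 ratio that changed sign with the dye had an SD of 0.114, and r between the arrays was -0.18 over genes, which share RNA, arrays and dyes and are not replicates. Another 27 genes reached 1.5-fold on each array but with opposite signs, all of them higher where WME carried Cy5. At 1.2-fold, 202 genes with opposite signs were higher where WME carried Cy5 and 107 were lower there. By comparison, 64 and 46 genes passed 1.2-fold with the same sign. The most discordant were bright genes. Grn, the progranulin gene, had log2 ratios of 1.53 and -1.0, and the ribosomal stalk gene Rplp1 had 1.12 and -1.14. Sparcl1, an astrocyte matrix gene, had 0.97 and -1.01, and Fth1, ferritin heavy chain, had 0.98 and -1.0. No direction is given for these.

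The tissue label was checked against 18 pan-neuronal markers. All 18 were well above background in each RNA on both arrays, their summed processed signals were 698800 and 645000 in LSO and 709900 and 654000 in WME, and their median log2 ratio was -0.009. None of them passed 1.2-fold. Processed signals are the intensities that the scanner software had subtracted for background and normalized between dyes, in arbitrary units. Below, the first value of each RNA is from the array with WME in Cy5 and the second from the array with WME in Cy3.

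Sequences upstream of 6 genes are shown first, chosen from the groups described below and for the size of their difference. They are the 250 bases before the transcription start from RefSeq (GRCm38.p6), 5′ to 3′ on the strand of the gene, in lower case. Capitals mark the letters searched for on both strands. TATAAA is the element that positions many transcription starts. GTTAAT is part of the site of HNF1, a transcription factor of tubule and liver. The letters TGACG are part of a cyclic AMP response element, and GAANNTTC is a pair of heat shock factor units. The arrays measured RNA and not binding, so a match is a description of the sequence only.
Kap, chr6:133853668-133853917, minus strand: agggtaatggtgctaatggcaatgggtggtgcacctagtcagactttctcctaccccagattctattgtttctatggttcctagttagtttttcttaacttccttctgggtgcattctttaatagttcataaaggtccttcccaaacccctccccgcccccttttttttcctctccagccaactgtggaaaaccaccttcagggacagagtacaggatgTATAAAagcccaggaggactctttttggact
Slc34a1, chr13:55399398-55399647, plus strand: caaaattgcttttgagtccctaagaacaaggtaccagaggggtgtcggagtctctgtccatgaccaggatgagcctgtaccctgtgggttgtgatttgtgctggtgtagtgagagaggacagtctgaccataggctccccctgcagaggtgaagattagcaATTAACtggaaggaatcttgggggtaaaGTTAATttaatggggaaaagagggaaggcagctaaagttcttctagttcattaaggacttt
Pomc, chr12:3954695-3954944, plus strand: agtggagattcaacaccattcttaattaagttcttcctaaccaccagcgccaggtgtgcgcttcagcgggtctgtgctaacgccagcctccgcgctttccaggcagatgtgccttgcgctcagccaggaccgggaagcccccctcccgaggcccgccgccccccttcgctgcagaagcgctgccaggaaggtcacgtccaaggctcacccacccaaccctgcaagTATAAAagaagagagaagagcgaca
Fos, chr12:85473640-85473889, plus strand: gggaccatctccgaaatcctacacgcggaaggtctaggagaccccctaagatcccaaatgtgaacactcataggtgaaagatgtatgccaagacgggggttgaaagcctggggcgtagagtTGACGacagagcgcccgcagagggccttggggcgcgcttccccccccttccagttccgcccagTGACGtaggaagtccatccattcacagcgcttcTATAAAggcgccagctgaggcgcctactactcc
Nr4a1, chr15:101266596-101266845, plus strand: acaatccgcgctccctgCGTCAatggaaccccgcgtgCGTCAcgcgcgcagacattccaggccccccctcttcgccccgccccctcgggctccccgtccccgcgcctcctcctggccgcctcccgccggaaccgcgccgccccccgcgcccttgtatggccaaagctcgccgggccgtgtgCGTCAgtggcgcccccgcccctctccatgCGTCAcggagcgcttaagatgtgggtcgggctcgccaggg
Hspa1a, chr17:34972157-34972406, minus strand: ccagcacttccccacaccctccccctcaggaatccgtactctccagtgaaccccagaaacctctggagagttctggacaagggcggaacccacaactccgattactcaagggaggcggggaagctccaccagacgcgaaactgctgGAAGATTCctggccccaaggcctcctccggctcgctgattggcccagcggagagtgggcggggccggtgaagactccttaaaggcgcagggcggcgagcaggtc

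GTTAAT occurred in 6 of the 16 promoters found for the 22 kidney transcripts past 1.2-fold, against 6.43% of 32851 mouse promoters of the same length. Slc34a1 held 2 copies, 89 to 84 and 61 to 56 bases before its start, and Kap held none, with TATAAA at 31 to 26. GTTAAT also occurred before Cyp2a5 (161 to 156) and Cyp2a4 (160 to 155), both called lower with WME. TGACG occurred in 8 of the 9 promoters found for the 11 immediate early genes past 1.2-fold, against 17.8% of all promoters. Fos had 2 copies and Nr4a1 had 4, while Egr2 had none in this window. The CArG box, a further motif searched for, occurred in 0 of the same 9 promoters, against 1.47% of all promoters. GAANNTTC occurred in the promoters of all 3 heat shock genes past 1.2-fold, Hspa1a, Hspa1b and Hspb1, against 6.69% of all promoters. Genes outside that list held it too, among them Umod, Acsm1, Ugt2b38 and Ugt2b37. The Hspa1a and Hspa1b sequences were identical at 98.8% of their 250 bases. The Pomc promoter held TATAAA, found in 12.4% of all promoters, and none of the other letters.

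Transcripts typical of the kidney proximal tubule formed the largest group that was higher with WME. Kap, the kidney androgen-regulated protein gene, gave processed signals of 40.3 and 54.5 in LSO and 3053 and 2709 in WME. Both WME values stood far above both LSO values. Its log2 ratio was 4.92 ± 0.24, or 30.3-fold with the background offset of 50, which pulls the ratios of dim probes towards 0. Dnase1, a secreted endonuclease, gave 16.7 and 14.9 in LSO and 358 and 309 in WME, a log2 ratio of 2.53 ± 0.04. Cyp4b1, a cytochrome P450 of tubule and lung, gave 80.9 and 88.2 against 489 and 439, a log2 ratio of 1.97 ± 0.17. These were 5.79-fold and 3.91-fold differences with the offset. The processed signals, which have no offset, gave 61.4-fold for Kap and 21.1-fold for Dnase1. Over the 32 higher genes their median log2 ratio was 2.11, against 1.03 with the offset, so the size of the ratio of a dim gene rests on this setting.

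Enzymes of fuel metabolism were next. Acsm2, a mitochondrial acyl-CoA synthetase for medium-chain acids, had a log2 ratio of 1.95 ± 0.13, and its other probe gave 1.43. Its LSO signals of 7.62 and 16.2 were well above background on 1 of the arrays, and its WME signals were 205 and 190. Acsm1, its neighbour in the same family, was at least 2.38-fold higher. The bound is used because its LSO signals, 4.06 and 3.09, were not well above background on either array and give only an upper limit for its level there. Fbp1, fructose-bisphosphatase of gluconeogenesis, gave 99.9 and 100.4 in LSO and 423 and 343 in WME, a log2 ratio of 1.55 ± 0.17. Cyp2e1 was at least 2.54-fold higher and Cyp2j5, an epoxygenase of the tubule, at least 2.09-fold, with another probe for Cyp2j5 at 0.91.

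Transporters of the brush border showed the same direction. Slc34a1, the sodium-phosphate cotransporter whose promoter is printed above, gave 19.3 and 21.0 in LSO and 197 and 178 in WME, a log2 ratio of 1.56 ± 0.10 (3.22 with processed signals). Cltrn, collectrin, which carries amino acid transporters to the membrane, had 0.99 ± 0.01. Pdzk1, the scaffold that anchors such transporters, had 0.88 ± 0.06. Slc17a3 and Slc7a13, carriers of organic anions and of acidic amino acids, were at least 1.65-fold and at least 1.64-fold higher, with another probe for Slc7a13 at 0.27. Keg1, an acyltransferase-like gene of kidney, had 0.72 ± 0.11; these 3 were called beyond the 20 largest and are named after their values were seen. Slc17a1 was at least 1.41-fold higher. The glucose transporter Slc5a2 (0.35 ± 0.005) and the lactate transporter Slc5a12 (0.42 ± 0.07) passed 1.2-fold. Not every transporter followed. Slc34a3, another phosphate carrier, stood at -0.05 ± 0.05, and the organic anion carriers Slc22a6 and Slc22a8, which choroid plexus and meninges also express, at 0.03 ± 0.03 and 0.003 ± 0.24.

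Of 38 measured proximal tubule transcripts, 28 were above 0 on both arrays and 1 was below. The same counts over all 26630 measured genes were 5158 and 4985. In the proximal tubule list 18 passed 1.2-fold and 12 passed 1.5-fold, all higher, against 0.24% and 0.12% of all genes. Its median log2 ratio was 0.26, against 0.001 over all measured genes. Later segments of the nephron had fewer such members. Among 18 transcripts of the loop of Henle and distal tubule, 2 passed 1.5-fold, Klk1, tissue kallikrein (1.38 ± 0.31), and Umod, uromodulin of the thick ascending limb (0.88 ± 0.06). Slc12a1, the salt cotransporter of the same limb, stood at -0.03 ± 0.12. Among 14 transcripts of collecting duct and glomerulus, Cdh16, kidney cadherin (0.90 ± 0.12), passed 1.5-fold and Ren1, renin (0.40 ± 0.02, other probe -0.04), 1.2-fold. The collecting duct water channel Aqp2 had -0.02 ± 0.16 and the podocyte gene Nphs1 had 0.06 ± 0.15. Over the kidney lists together, 70 genes were measured, 22 passed 1.2-fold higher and 0 lower. They supplied 15 of the 32 genes called higher. The kidney lists, like the other lists here, were chosen with earlier results of these data known. Their counts may follow in part from that choice and are not independent support.

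**Figure D2:**
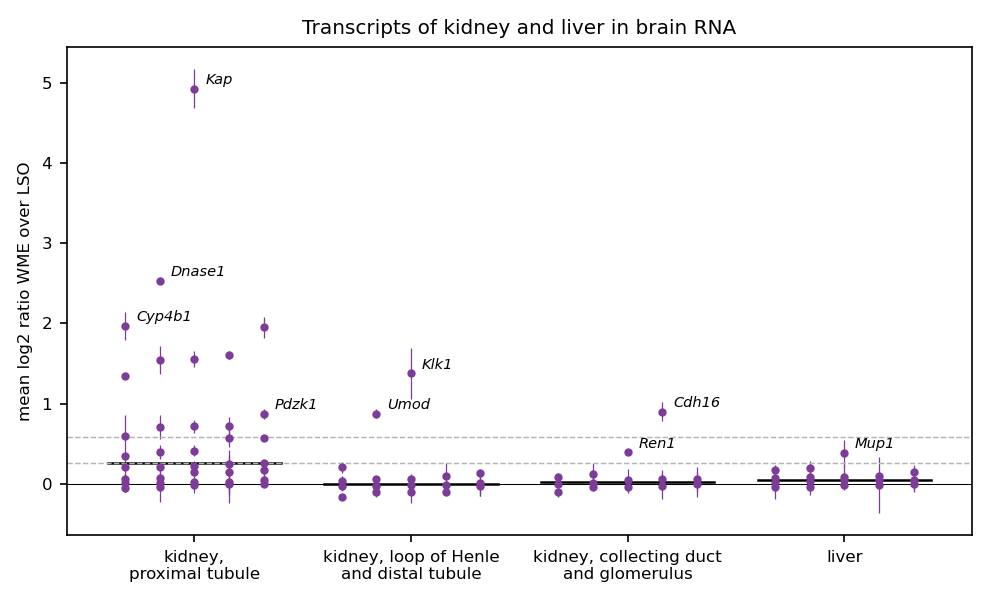
Mean log2 ratio of WME over LSO for each measured transcript of the 3 kidney lists and the liver list, with the SD over the 2 dye orientations as bars and the list median as a black line. Dashed lines mark 1.2-fold and 1.5-fold. The proximal tubule list holds 18 members past 1.2-fold, led by Kap at 4.92, and the liver list 1.

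Members of the proximal tubule list were detected in the LSO RNA too, among them Slc22a6, which choroid plexus and meninges also express. Others were dim there, with Cyp2e1, Slc17a1 and Slc7a13 not well above background in LSO on either array. Of the proximal tubule list, 32 and 33 members were well above background in LSO on the respective arrays and 38 and 38 in WME, and the summed processed signals were 19840 and 16610 against 25940 and 22810. Kap alone gave 40.3 and 54.5 of these sums in LSO and 3053 and 2709 in WME. The part of kidney RNA in these values was not tested. Liver transcripts, which share several enzymes with the tubule, had a median of 0.05 with 1 of 18 past 1.2-fold, the pheromone-carrier gene Mup1 (0.38 ± 0.17), one of a family of near-identical genes. The liver-secreted albumin gene Alb was at least 1.15-fold higher, below the 1.2-fold threshold. Skeletal muscle transcripts had a median of -0.06 with none of 16 past 1.2-fold.

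Other called genes have roles in tubule or gut epithelium. Guca2b, uroguanylin, a peptide that regulates salt excretion, had a log2 ratio of 0.94 ± 0.09. S100g, the calcium-binding calbindin of epithelia, was at least 1.81-fold higher, and the carboxylesterase Ces1f at least 1.94-fold. Ugt3a2, a glycosyltransferase gene, had 0.79 ± 0.06 on its brightest probe, its other probe being not well above background, and its neighbour Ugt3a1 had 0.57 ± 0.11. In their family and the related Ugt2b genes, a set added after the values were seen, 4 of 6 measured members passed 1.2-fold, all higher, including Ugt2b38 (at least 1.47-fold) and Ugt2b37 (0.40 ± 0.18). Napsa, an aspartic protease of tubule and lung (0.57 ± 0.02), and the sulfotransferase Sult1c2 (0.48 ± 0.02) passed 1.2-fold. The kallikrein genes beside Klk1, also added afterwards, had 3 of 8 measured members past 1.2-fold, Klk1, Klk1b4 (0.80 ± 0.05) and Klk1b8 (0.47 ± 0.13). Over all genes 0.24% passed 1.2-fold higher, but the counts of these added sets follow from how they were chosen. Kallikrein and Ugt2b genes are near-identical within each family, so the probes may share signal and the values of single members are uncertain.

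Pomc was the largest difference in a gene of established brain function. It encodes the precursor of corticotropin, the melanocortins and beta-endorphin, and is expressed in the arcuate nucleus and in pituitary corticotrophs and melanotrophs. Its signals were 1591 and 1619 in LSO and 5903 and 5509 in WME, with no overlap between the RNAs. The log2 ratio was 1.79 ± 0.11, a 3.47-fold difference. Of 19 measured hypothalamic neuropeptides, 1 passed 1.2-fold on both arrays, Pomc itself, and the median was 0.04. The lowest was Oxt, oxytocin, at -0.29 ± 0.20. Agrp, the antagonist made by the neighbouring arcuate neurons, had 0.04 ± 0.15, Npy 0.15 ± 0.02 and Hcrt, orexin, 0.13 ± 0.07. In the melanocortin pathway, none of 13 measured receptors, processing enzymes and accessory proteins passed 1.2-fold, with the receptor gene Mc4r at 0.13 ± 0.08.

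Pituitary genes were read for comparison, since Pomc is a pituitary gene too. Of 13 measured, 2 passed 1.2-fold higher, Pomc and Gh, growth hormone, against 0.24% of all genes. Gh signals were 37.2 and 33.1 in LSO and 65.1 and 54.2 in WME (log2 ratio 0.34 ± 0.05). Prl, prolactin, stood at 0.21 ± 0.12 and the glycoprotein hormone subunit Cga at -0.005 ± 0.08. Tshb, the pituitary factor Pou1f1 and the corticotroph factor Tbx19 were not well above background in either RNA. The summed signals of the list were 84930 and 67370 in LSO and 80610 and 85010 in WME. The part of pituitary cells in the Pomc value was not tested.

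**Figure D3:**
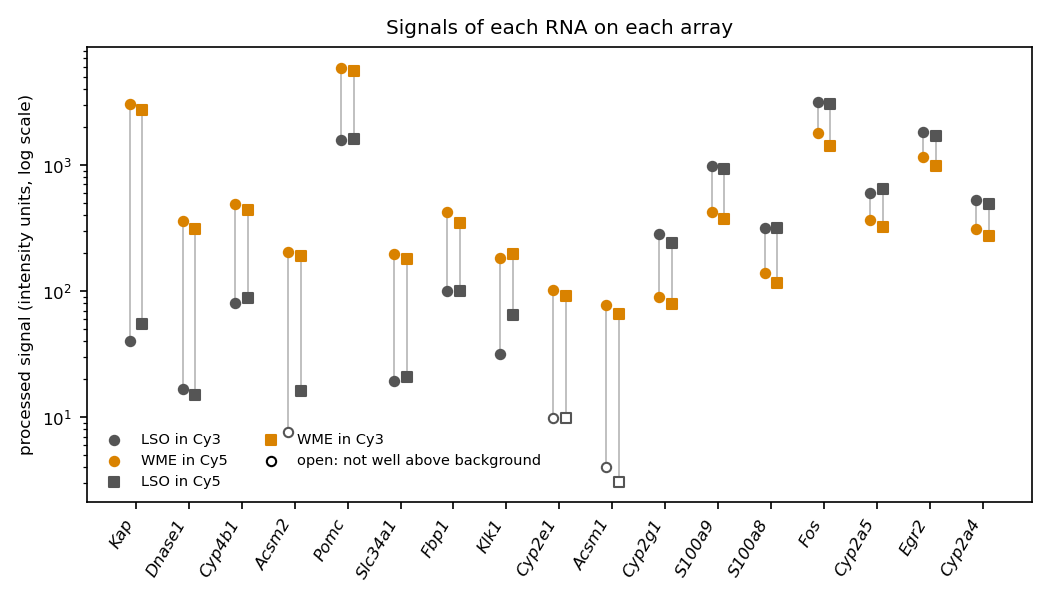
Processed signal (log axis) of the LSO and WME RNA on both arrays for 10 genes higher and 7 genes lower with WME. Circles are the array with WME in Cy5, squares the array with WME in Cy3, and open symbols were not well above background. For each gene the WME values of both arrays lie on the same side of both LSO values, from Kap (40.3 and 54.5 against 3053 and 2709) to Cyp2a4 (530.5 and 490.9 against 312 and 272). The rule for calls already requires the same direction on each array.

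Immediate early genes were the largest group that was lower with WME. Fos, the transcription factor gene used most widely as a marker of recent neuronal activity, gave 3132 and 3018 in LSO and 1806 and 1404 in WME. The log2 ratio was -0.93 ± 0.23, so LSO exceeded WME 1.91-fold. Egr2, a zinc finger factor, gave 1819 and 1704 against 1152 and 973, a log2 ratio of -0.69 ± 0.08. Both passed 1.5-fold on both arrays. Npas4, a factor induced by calcium entry in neurons, had -0.75 ± 0.27, and Nr4a1, an orphan nuclear receptor gene, had -0.67 ± 0.16, each past 1.5-fold on 1 array.

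Of 36 measured members, 11 passed 1.2-fold lower and 0 higher, where 0.173% of all genes were that much lower. Their transcription factors included Junb (-0.50 ± 0.14) and Egr4 (-0.46 ± 0.03), and Ier2 was at -0.51 ± 0.17 with its other probe at 0.14. Ccn1, a secreted matrix protein gene, had -0.50 ± 0.23, Dusp1, a phosphatase that turns off mitogen-activated kinases, -0.49 ± 0.30, and Btg2 -0.39 ± 0.03. Arc, which regulates glutamate receptor traffic at the synapse, had -0.32 ± 0.08. The list median was -0.10, and 17 members were below 0 on both arrays. Over all measured genes 4985 of 26630 were below 0 on both arrays and 5158 above. Another 4 members of the list were above 0 on both arrays, among them late response genes. They were Bdnf (0.13 ± 0.004), Nptx2 (0.23 ± 0.08), Inhba (0.26 ± 0.01) and Homer1 (0.24 ± 0.23). Jun stood at -0.01 ± 0.07.

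**Figure D4:**
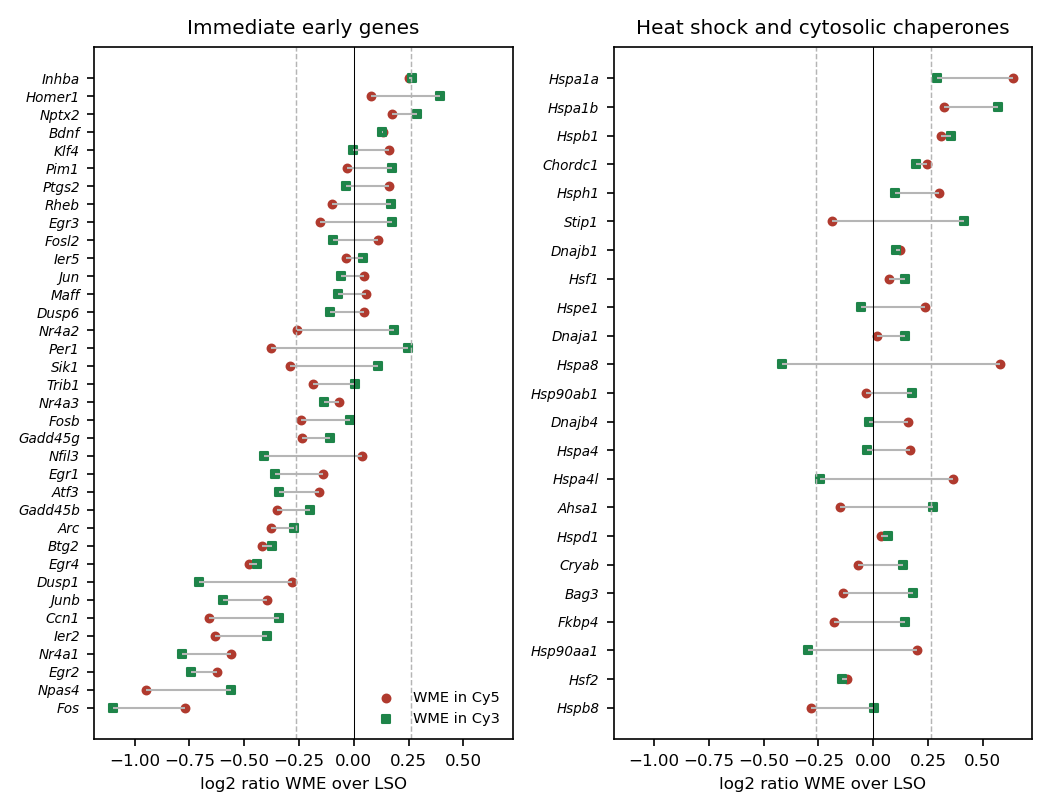
Log2 ratio of WME over LSO on each array for 36 immediate early genes (left) and 23 heat shock and chaperone genes (right), ordered by their mean. Dashed lines mark 1.2-fold. On the left 11 genes lie below the lower line on both arrays, from Fos to Arc, and on the right Hspa1a, Hspa1b and Hspb1 lie above the upper line on both.

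Heat shock genes leaned the other way. Hspa1a, an inducible HSP70 gene, gave 3926 and 4270 in LSO and 6150 and 5374 in WME, a log2 ratio of 0.47 ± 0.24. Its near-identical copy Hspa1b had 0.45 ± 0.18, with its other probe at 0.12, and the small heat shock gene Hspb1 had 0.33 ± 0.03. These were the 3 of 23 measured chaperone genes past 1.2-fold higher, against 0.24% of all genes, and 0 passed lower. The median was 0.07, with 9 members above 0 on both arrays and 1 below. Over all 26630 measured genes, 5158 were above 0 on both arrays and 4985 below. Constitutive Hspa8 went opposite ways on the arrays, 0.58 and -0.42, and gave no direction. Of 18 chaperones of the endoplasmic reticulum, 11 were above 0 on both arrays, 0 were below and 0 passed 1.2-fold, with Sdf2l1 at 0.29 ± 0.07.

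Neutrophil transcripts were lower with WME. S100a9 and S100a8 encode the subunits of calprotectin, the main cytosolic protein of neutrophils. S100a9 gave 973 and 930 in LSO and 427 and 370 in WME, a log2 ratio of -1.16 ± 0.05. S100a8 gave 318 and 315 against 139 and 115, a log2 ratio of -0.97 ± 0.12. The granule protein genes Ltf (-0.53 ± 0.03, other probe -0.33), Camp (-0.47 ± 0.09) and Ngp (-0.44 ± 0.06) passed 1.2-fold, and with processed signals they had -1.21, -1.42 and -1.55. In all 5 of 16 measured members passed 1.2-fold lower and 0 higher, against 0.173% and 0.24% of all genes. The list median was -0.15. The other granule genes Prtn3 and Ctsg stood at 0.09 ± 0.06 and -0.06 ± 0.003. The summed signals of the list were 2297 and 2121 in LSO and 1419 and 1235 in WME. Erythroid genes, which come with any blood left in the tissue, had a median of -0.03 with none of 13 past 1.2-fold. Of these 13, 6 were below 0 on both arrays and 2 above, beside 4985 and 5158 of all 26630 measured genes. Alas2, the enzyme of erythroid heme synthesis, stood at -0.18 ± 0.24. The part of residual blood in the neutrophil values was not tested.

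Several cytochrome P450 genes of a run on chromosome 7, in the RefSeq gene order, were also lower. Cyp2g1, an enzyme of the olfactory mucosa, gave 284 and 242 in LSO and 89.0 and 79.1 in WME, a log2 ratio of -1.23 ± 0.09, with its other probe not well above background. Cyp2a5, a hydroxylase of coumarin and nicotine, had -0.80 ± 0.20, and Cyp2a4, its near-identical neighbour, had -0.68 ± 0.09 on its brightest probe and -0.29 and -0.32 on others. Cyp2f2, known from airway and olfactory epithelium, had -0.47 ± 0.10. Among 7 measured Cyp2 genes of this run, a set added after the values were seen, 4 passed 1.2-fold lower and 0 higher. Over all genes 0.173% were that much lower, but the count follows from how the set was chosen. Near-identical members may share probe signal. Other olfactory mucosa transcripts moved less. Of 19 measured, 4 passed 1.2-fold lower, Cyp2g1, Cyp2a5, Cyp2f2 and the secreted Bpifb9a (at least 1.33-fold lower), and the median was -0.07. Omp, which marks mature olfactory neurons, gave 58.1 and 47.1 in LSO and 58.2 and 50.2 in WME. Summed signals were 4577 and 4041 in LSO and 3904 and 3566 in WME, and the part of olfactory tissue was not tested.

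All 3 measured members of the Xlr family, X-linked lymphocyte-regulated genes added after the values were seen, were past 1.2-fold higher. Over all genes 0.24% were, but this count too follows from how the set was chosen. Xlr5a had a log2 ratio of 0.71 ± 0.06, Xlr3c 0.49 ± 0.11 and Xlr4b 0.42 ± 0.15, with other probes for Xlr4b at 0.15 and 0.54. Their copies are similar, so single members are uncertain. Cxcl13, a chemokine that attracts B cells, had 0.68 ± 0.27, past 1.5-fold on the array with WME in Cy5. Lower genes past 1.2-fold in no group above included Gcg, proglucagon (-0.48 ± 0.13), and among list members Col3a1, a fibrillar collagen gene (-0.35 ± 0.01, other probe 0.05).

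**Figure D5:**
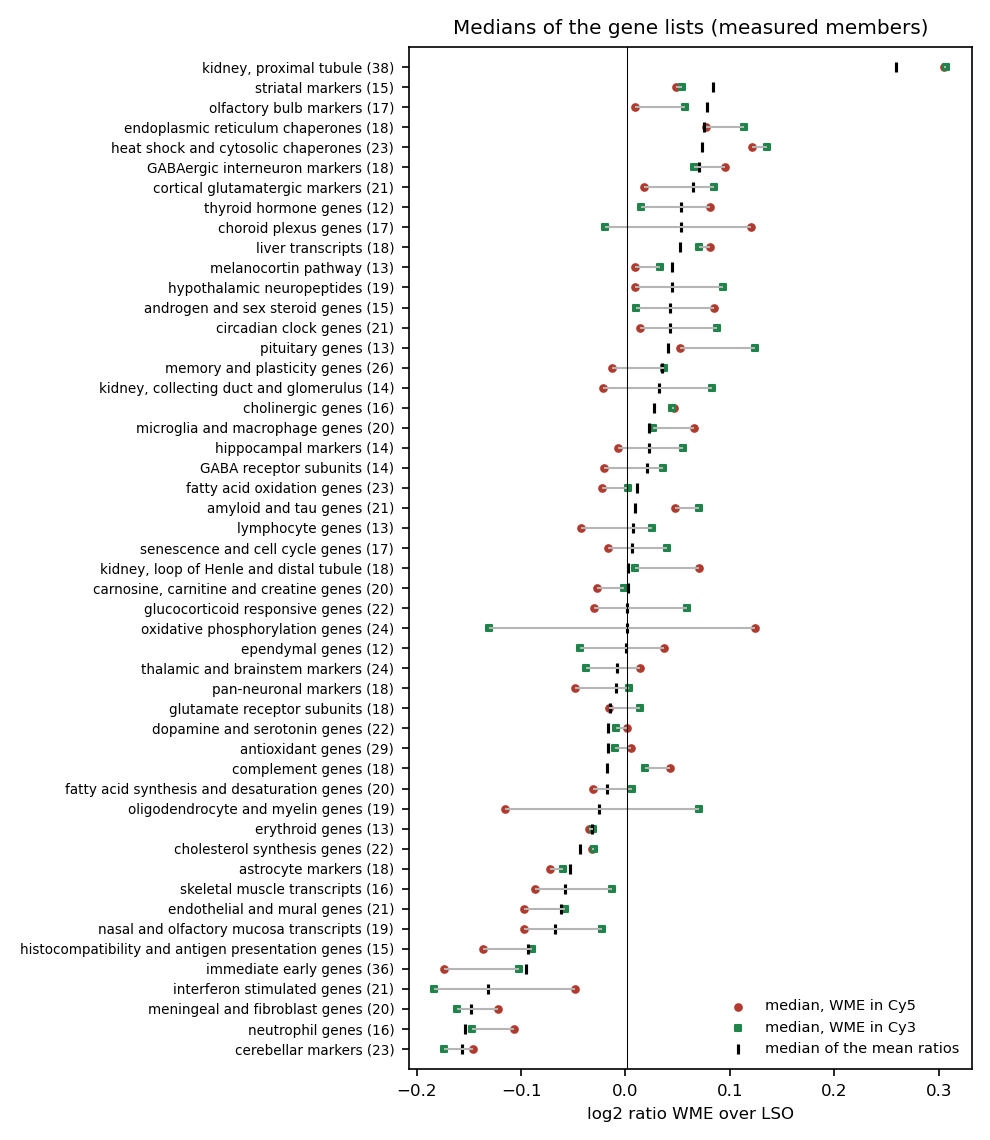
Median log2 ratio of WME over LSO of the 50 gene lists, with the number of measured members in brackets. Circles and squares are the medians on each array, and black ticks the median of the mean ratios. The proximal tubule list stands highest at 0.26, and the cerebellar and neutrophil lists lie at -0.16 and -0.15, while oxidative phosphorylation genes moved with the dye (0.12 and -0.13).

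Lists of brain regions and cell types shifted by small amounts. Cerebellar markers had a median of -0.16, with 20 of 23 below 0 on both arrays, 0 above and 0 past 1.2-fold. Of all 26630 measured genes, 4985 were below 0 on both arrays and 5158 above. Cbln1, a synaptic organiser made by granule cells, had -0.29 ± 0.09, Cdh15 -0.28 ± 0.09, and the granule cell receptor subunit Gabra6 -0.24 ± 0.13. Their summed signals were 231500 and 207500 in LSO and 202700 and 182500 in WME. Markers of forebrain regions had medians on the other side, 0.08 for striatum, 0.07 for cortical glutamatergic neurons and 0.02 for hippocampus. The hippocampal median changed sign with the dye, -0.007 with WME in Cy5 and 0.06 with WME in Cy3. Signs were opposite on the arrays for 8 of 15 striatal, 10 of 21 cortical and 9 of 14 hippocampal members, against 61.9% of all genes. Meningeal and fibroblast genes had a median of -0.15, with 13 of 20 below 0 on both arrays, and endothelial and mural genes -0.06. Astrocyte markers had -0.05, oligodendrocyte genes -0.02 and microglia and macrophage genes 0.02, with Lyve1, a marker of border macrophages, past 1.2-fold at 0.32 ± 0.04 and its other probe at 0.09.

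Interferon and antigen presentation lists also lay below 0. Of 21 interferon stimulated genes, 14 were below 0 on both arrays and 0 above, with a median of -0.13 and Irf7, a regulator of interferon genes, at -0.26 ± 0.11. Of 15 histocompatibility and antigen presentation genes, 9 were below 0 on both arrays and 0 above, with a median of -0.09. None in either list passed 1.2-fold. Over all 26630 measured genes, 4985 were below 0 on both arrays and 5158 above. Cxcl10 differed between the arrays, 0.06 and -0.79.

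Lists chosen for nutrients of meat, such as fatty acids, carnitine and imidazole dipeptides, held no member past 1.5-fold. The medians were 0.01 for fatty acid oxidation (23 measured), -0.02 for fatty acid synthesis and desaturation (20), -0.04 for cholesterol synthesis (22) and 0.002 for carnosine, carnitine and creatine genes (20). Antioxidant genes had a median of -0.02 with none of 29 past 1.2-fold on both arrays; Gpx3, the plasma glutathione peroxidase made by kidney, had 0.23 and 0.60. Lists tied to memory and ageing were similar. Medians were 0.03 for memory and plasticity genes, where Arc was the 1 of 26 past 1.2-fold, 0.03 for cholinergic genes, 0.009 for amyloid and tau genes and 0.006 for senescence and cell cycle genes, the last 3 with none past 1.2-fold. The circadian gene Per2 stood at 0.32 ± 0.11 with another probe at 0.07. A list median of this size says that its middle member was close to equal in these RNAs and does not show that no member differed.

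The SAMP8 LSO RNA is the denominator here and the numerator in the strain pair of arrays, so the ratios of a gene in the pairs share that RNA and are given only side by side. For Kap the strain log2 ratio, SAMP8 LSO over SAMR1 LSO, was -3.00 ± 0.07 beside a diet ratio of 4.92. For Dnase1 it was -1.27 ± 0.001 beside 2.53, for Cyp4b1 -0.89 ± 0.08 beside 1.97 and for Slc34a1 -0.62 ± 0.18 beside 1.56. Pomc had a strain ratio of -0.13 ± 0.003 beside 1.79. Among lower genes, Fos had 1.11 ± 0.17 beside -0.93, Egr2 1.15 ± 0.05 beside -0.69, S100a9 1.31 ± 0.06 beside -1.16 and Cyp2g1 1.37 ± 0.02 beside -1.23. Hspa1a had 0.20 ± 0.20 beside 0.47. For Xlr3c, Xlr4b and Cxcl13 both ratios were above 0, with strain ratios of 1.1 ± 0.08, 1.27 ± 0.16 and 1.11 ± 0.14.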

How the data were processed

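Spot intensities of 4 two-colour arrays were read from the deposited scanner files, which the submitters' processing notes credit to Agilent Feature Extraction 11.0.1.1. Median intensities and local backgrounds are raw, per the file headers. That program had subtracted background from the processed intensities and normalized the dyes, per the file headers, and it wrote a log10 ratio, which was not used. The deposited series table holds log2 ratios equal to log2 of red over green processed signal (largest difference 5e-09), so it was not turned for the dye swap or centred. On the diet arrays the median spot read 275 and 291 in Cy3 (background 65 and 67) and 307.5 and 334 in Cy5 (72.5 and 74), and 0 spots were saturated. The number of arrays limits the precision.

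Median signals were corrected with normexp (offset 50) and loess in limma 3.58.1 (R 4.3.3), control spots at weight 0. The offset pulls ratios of dim probes towards 0. Spots with an outlier flag of feature or background (160 and 166 on the diet arrays) were left out before normexp. This order was chosen after the calls had been seen with all spots in the fit, which gave 15 higher and 8 lower. On the array with WME in Cy3, 5 spots with local background far above their signal (lowest net signal -3493), all with the background flag, had moved the fitted background from -15.1 to -185.8 in Cy5 and from -7.37 to -88.2 in Cy3.

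Of 41174 probes, 23374 were named through RefSeq accessions (GRCm38.p6, names and gene order only), 10 by symbol, and 17790 kept the file's identifier. The brightest probe stood for a gene. A gene was measured when well above background in at least 1 RNA on both arrays. Where 1 RNA was below that on each array, folds are bounds against the higher of the lowest well detected signal and the probe's own. With 1 RNA pair there is no test. Genes named were up to 20 called per direction, 10 per direction past 1.2-fold only, up to 8 members past 1.2-fold of each of 50 lists (2 where none passed) and the 4 most discordant; some of these are not reported here. The members and lists were chosen with earlier results of these data known. On simulated arrays, the 1.5-fold rule called 0 of 50 genes changed 1.2-fold, 4 of 50 changed 1.5-fold, 50 of 50 changed 2-fold and 0 of the unchanged genes. The 1.2-fold rule called 5 of 50 changed 1.2-fold and 50 of 50 changed 1.5-fold. Changed genes were all well above background in both RNAs, and the noise had the same size at all intensities. The simulation therefore gives no rate of false calls for dim genes. Alternatives covered background, normalization, offset, filters, probes, flagged spots and each dye orientation.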

Additional observations from a re-analysis of the deposited data

How the results depend on the processing

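Across 12 alternative settings, none of the 30 named called genes changed sign. The settings with a single array could not change it, since calls required the same sign on both. The filter settings left the ratios as they were, and the others processed the same 2 arrays again. Calls are given as higher and lower at 1.5-fold, then higher and lower at 1.2-fold, where the values used were 32, 9, 64 and 46. Feature Extraction's processed signals gave 63, 41, 253 and 265, and the deposited log2 ratios 63, 41, 254 and 266. Neither has the offset that holds back ratios of dim probes, and an offset of 16 gave 40, 15, 94 and 70. With flagged spots kept, or with normexp fitted on all spots (added after the data were seen), the counts were 15, 8, 47 and 29; the fitted background of the array with WME in Cy3 moved as given above. Requiring both RNAs well above background gave 22, 9, 48 and 44, because genes dim in LSO were no longer tested. A single array called 73, 20, 801 and 666 (WME in Cy5) or 39, 49, 492 and 921 (WME in Cy3), where the dye bias is not cancelled. A 2-fold rule gave 14 and 3. Median centring gave 31, 8, 64 and 40, with the median of all genes at 0.013. No background subtraction, no filter and the median over probes kept all 4 counts within 1.5 times of those used. Some list medians near 0 changed sign with the setting: 13 of 50 with the array with WME in Cy5 alone, 9 with that with WME in Cy3 alone, 8 with median centring, 7 with the median over probes and at most 4 with each of the others. Among those that turned with median centring were the pan-neuronal (0.06), antioxidant (0.03) and oligodendrocyte (0.02) medians; the cause was not tested. No paired analysis was possible because the diet pair is 1 pair of RNAs and no test was run.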
